A study of Mus musculus with 16 samples.

Results

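The neuropeptide genes Sst, Npy, Cck, Vip, Penk, Pdyn, Tac1, Crh and Cort were followed through the nuclei of the mouse hippocampus. These 9 genes were taken by symbol from the 32285 genes of each count matrix, and each symbol matched 1 gene. They were read by neuron class and by genotype in 16 single-nucleus RNA libraries from female mice aged 9 months. Each library was either Ch25h+/+ or Ch25h-/- and either Tau+ or Tau-, which gave 4 groups of 4 libraries, named here by both genotypes (Ch25h+/+ Tau-, for example). Ch25h encodes cholesterol 25-hydroxylase, which makes 25-hydroxycholesterol. The strain, the name of the tau line, its promoter and how Ch25h was inactivated are not given in the sources used here.

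Neuropeptides are cut from longer precursor proteins, packed into dense-core granules and released mostly during strong firing, and they act on G protein-coupled receptors. In the hippocampus most of the precursor genes mark kinds of GABAergic interneuron. Somatostatin (Sst) marks interneurons that contact distal dendrites, neuropeptide Y (Npy) marks several dendrite-targeting and neurogliaform kinds, cholecystokinin (Cck) marks a class of basket cell, and vasoactive intestinal peptide (Vip) marks interneurons that mainly contact other interneurons. Cortistatin (Cort) is a relative of somatostatin. Penk and Pdyn encode the precursors of the enkephalins and the dynorphins, the latter a known product of dentate granule cells. Tac1 encodes the precursor of substance P, and Crh encodes corticotropin-releasing hormone.

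Sst lies on chromosome 16 (chr16:23889573-23890958, minus strand) and Cort on chromosome 4 (chr4:149125034-149126763, minus strand) in build GRCm38 (GENCODE M21). Both genes end in a similar coding stretch, where the receptor-binding peptides are encoded. It is shown here because reads over this stretch can be told apart only by the bases that differ. Over 39 aligned bases of the last 42 coding bases of each gene, 31 were identical (79.5%). The capitals in the next lines mark identical bases.
Sst, chr16:23889732-23889773: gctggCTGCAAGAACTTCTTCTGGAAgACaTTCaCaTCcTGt
Cort, chr4:149125267-149125308: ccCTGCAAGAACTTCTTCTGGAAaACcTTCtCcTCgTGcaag
The whole coding sequences were 348 bases for Sst and 327 bases for Cort. The untranslated ends of the transcripts were not compared.

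Promoters of 5 members held a cyclic AMP response element or a near copy of it. This element is bound by the activity-regulated factor CREB, and the Sst promoter is its textbook example. RefSeq promoters (GRCm38.p6, 250 bases before each start site) were matched for 7 of the 9 genes. Each line below gives the motif in capitals with 11 flanking bases on either side.
Sst, chr16:23890874-23890903, minus strand: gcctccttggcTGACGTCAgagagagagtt
Vip, chr10:5639128-5639155, plus strand: gatcactactgTGACGTctttcggggag
Cck, chr9:121495726-121495754, minus strand: tcctgctggacTGCGTCAgcactgggtaa
Tac1, chr6:7554851-7554879, plus strand: ttccctaaaatTGCGTCAtttcgaacaca
Cort, chr4:149126766-149126794, minus strand: gctccggcttgTGCGTCAccgcgtgagtg
Both strands were searched. The full palindrome TGACGTCA stood in Sst only, its first base 48 bases before the RefSeq start site, and 1.55% of 32851 promoters held it. The shorter TGACGT, which lies within the palindrome, stood in Sst and Vip and in 6.47% of promoters. TGACGCA, whose reverse complement is the TGCGTCA printed above, stood in Cck, Tac1 and Cort and in 1.75% of promoters. The RefSeq start of Sst lies inside the GENCODE gene bounds given above, whose first exon takes in the motif. A match describes these letters only.

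After filtering, 136828 nuclei were kept, 7601 to 10567 per library, and the libraries held 51270831 to 84870650 unique molecular identifiers (UMIs, counted RNA molecules) each. Of 134451 distinct barcodes, 2340 occurred in more than 1 library (1.74%). Clusters were named from marker genes that did not include the 9 peptide genes. Dentate gyrus (DG) granule neurons numbered 21548, CA1 pyramidal neurons 15641, CA3 pyramidal neurons 7756, other excitatory neurons 20912 and inhibitory neurons 10376. Inhibitory sub-clusters gave Sst-type (1861 nuclei), Pvalb-type (1887), Vip-type (1277), Lamp5-type (1196) and Sncg-type (1018) nuclei, named after the field's usual subclasses, and 3137 inhibitory nuclei had no subclass. Among the latter, sub-clusters of 332 nuclei (led by Ebf1), 350 (Foxp2), 124 (Pax6) and 81 (6530403H02Rik) were uneven. Of their nuclei 26.2%, 52.0%, 38.7% and 49.4% came from 1 library. The first had Slc17a6 among its 10 leading genes. They stayed in the inhibitory neuron values and in the totals for subclass shares. Ch25h itself had 8 to 34 UMIs per library. Its level was 0.149 to 0.740 CPM (UMIs of the gene scaled to a common total of UMIs), and the Ch25h-/- libraries were not lower, so these counts do not check the Ch25h label. Replicates 1 and 2 of each group stood apart from replicates 3 and 4 in the values, which no label explains. The labels do not say in words that each library is a separate mouse, so the p-values measure the spread between libraries.

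Nuclei of all kinds carry some free RNA, so oligodendrocytes, which should lack these peptides, served as the background. The level of a gene in a class is given as CPM of all UMIs of that class, and ± is the SD over the 16 libraries unless a group is named. Across 9 genes and 10 neuron classes, 33 of 90 gene-class pairs were above the oligodendrocyte level of the same library in all 16 libraries for the share of nuclei with a UMI. When each nucleus was drawn down to 1000 UMIs, 15 pairs were. Oligodendrocyte nuclei were shallow, with a median of 1543 UMIs against 7431.5 for inhibitory neurons. Sst, read as background in both, had a UMI in 2.49% of oligodendrocytes and 2.41% of the deeper CA3 neurons. Yet it was at 16.7 and 2.06 CPM, and in 1.60% and 0.284% of nuclei at 1000 UMIs. Background on the latter measures was thus higher in shallow nuclei. A deeper class below oligodendrocytes on them may still carry the gene.

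**Figure D1:**
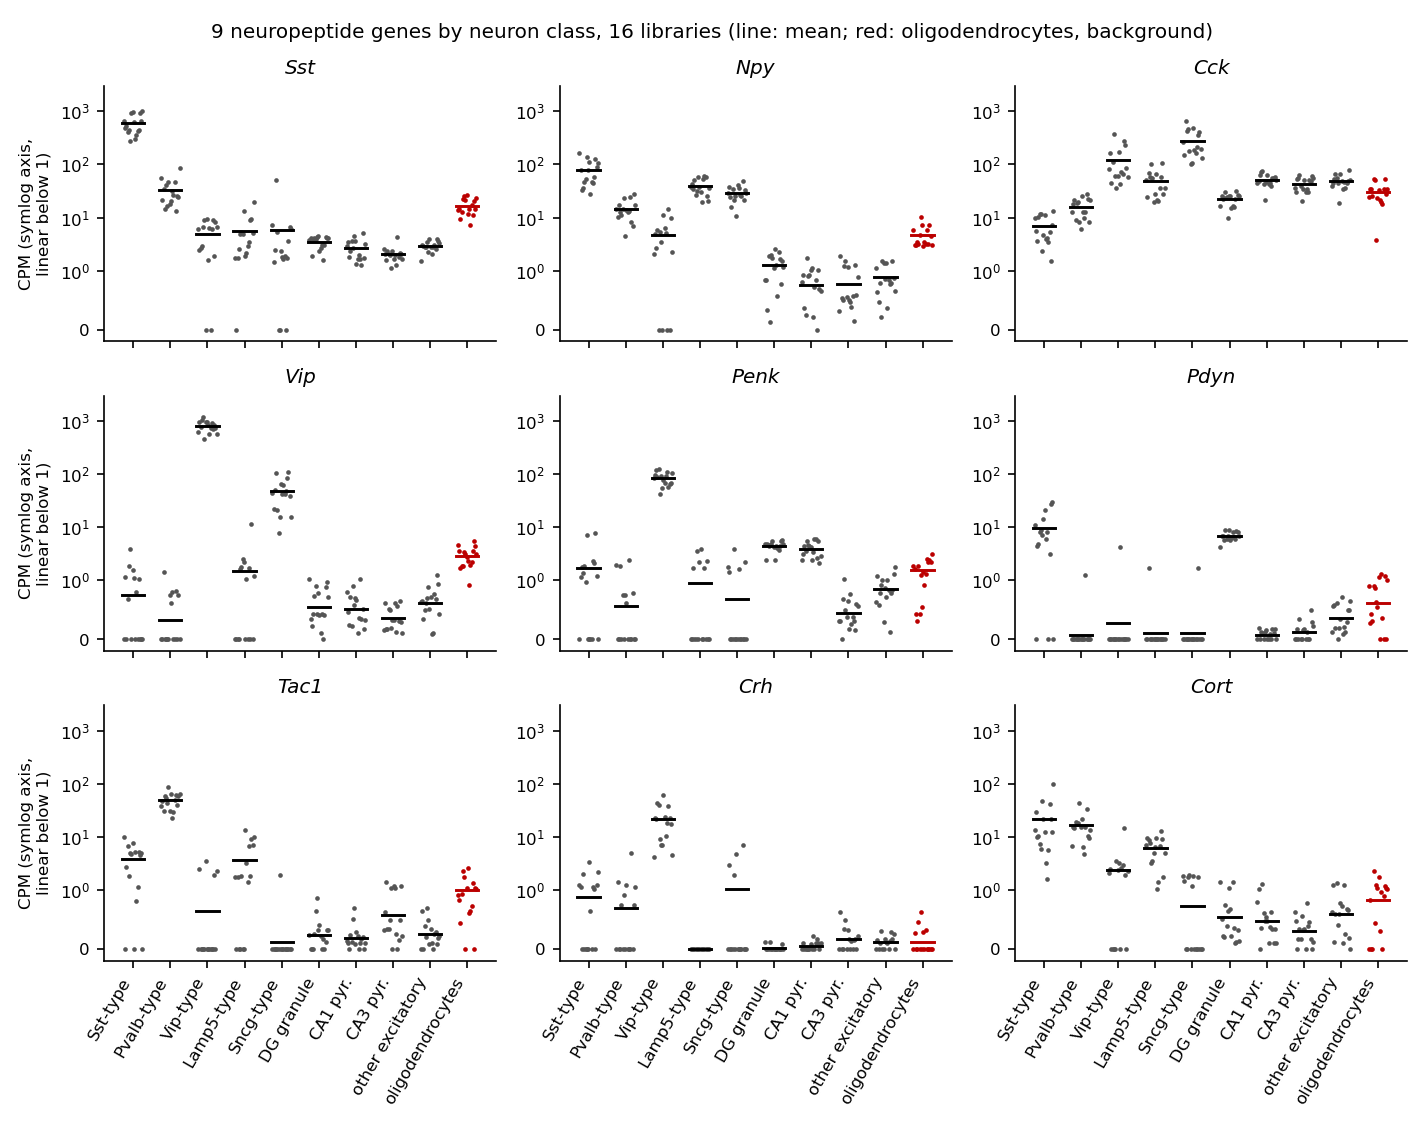
Level of each of the 9 peptide genes (CPM) by neuron class, 1 point per library, with the mean as a line and oligodendrocytes in red as background. Sst is highest in Sst-type nuclei, Vip and Penk in Vip-type, Cck in Sncg-type and Tac1 in Pvalb-type nuclei.

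Among the named classes, Sst was highest in Sst-type nuclei, at 590.45 ± 244 CPM, and next in Pvalb-type nuclei, at 32.7 ± 19.0 CPM. Those means differed by more than the sum of their SDs. At least 1 Sst UMI was seen in 68.6% of Sst-type nuclei (34.2% at 1000 UMIs), against 2.49% of oligodendrocytes (1.60% at 1000 UMIs). Levels in the Sncg-, Lamp5- and Vip-type and in the excitatory classes were 2.06 to 5.78 CPM, below the oligodendrocyte mean of 16.7 ± 5.86 CPM, and are read as background. Of 2159 inhibitory nuclei with 2 or more Sst UMIs, 48.2% were Sst-type and 46.1% had no subclass. The latter lay mostly in 5 unnamed sub-clusters of 1567 nuclei with 336 to 492 CPM of Sst.

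Sst varied widely among Sst-type sub-clusters. A small sub-cluster of 31 nuclei led by Chodl, Bace2 and Nos1, genes known for long-range projecting cells, had 1090.5 CPM of Sst and 1376 CPM of Npy. A sub-cluster of 738 nuclei led by Pdyn, Hpse and Dmrt2 had 614 CPM of Sst and 21.9 CPM of Pdyn. Another sub-cluster, of 489 nuclei led by 2310002F09Rik, Ano2 and Cpa6, had only 28.1 CPM of Sst and 0.820 CPM of Npy, against 765 and 99.2 CPM in the other Sst-type nuclei. It was named Sst-type because 3 of the 9 Sst-type markers, Trhde and Unc5b among them, were at least 2-fold above other inhibitory nuclei. It also met 3 of 10 Lamp5-type markers (Ndnf, Sv2c and Sema5a). None of 5 markers of medial ganglionic eminence origin reached 2-fold there. Lhx6, a transcription factor that defines that origin, was at 0.205 CPM against 65.9 CPM in the rest, and Grin3a, an Sst-type marker, was at 22.3 against 916 CPM. The label Sst-type went against the markers of those 489 nuclei, so Sst, Npy, Cort and Pdyn levels and the tau effects on Sst, Npy and Cort in Sst-type nuclei are given with and without them. Without them Sst was at 792 ± 193 CPM, and 86.6% of the remaining 1372 nuclei had an Sst UMI (45.4% at 1000 UMIs).

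Cort, which gives a peptide that binds somatostatin receptors, was highest among the named classes in Sst-type nuclei (21.3 ± 24.6 CPM), Pvalb-type nuclei (16.5 ± 9.99 CPM) and Lamp5-type nuclei (6.18 ± 3.396 CPM). Neighbours in that order did not differ beyond their spread, and each was above the oligodendrocyte level of 0.822 ± 0.666 CPM in 16 of 16 libraries. Without the Ano2 and Cpa6 nuclei the Sst-type level was 25.6 ± 24.6 CPM. Unnamed inhibitory sub-clusters reached 33.2 CPM (220 nuclei led by Qrfpr and Postn) and 32.5 CPM (332 nuclei led by Gm44271). Of 174 inhibitory nuclei with 2 or more Cort UMIs, 38.5% had no subclass, 34.5% were Pvalb-type and 24.1% Sst-type. A Cort UMI was seen in 6.72% of Sst-type nuclei (8.89% without the Ano2 and Cpa6 nuclei) and 9.96% of Pvalb-type nuclei, and in 0.129% of oligodendrocytes.

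Npy, a peptide that dampens excitability, was spread over more classes. Its mean was 77.0 ± 41.2 CPM in Sst-type, 38.8 ± 13.3 in Lamp5-type, 28.7 ± 9.49 in Sncg-type and 14.6 ± 6.38 in Pvalb-type nuclei, against 4.61 ± 2.09 CPM in oligodendrocytes. No neighbouring pair in that order differed by more than the sum of its SDs. Without the Ano2 and Cpa6 nuclei the Sst-type level was 100.74 ± 37.3 CPM, which was above the Lamp5-type level by more than the sum of the SDs. The Lamp5-type held 179 nuclei led by Stac and Clic6, named on 3 of 10 markers, with 0.674 CPM of Npy on 1 UMI. Its other 1017 nuclei had 45.2 CPM. Stac, 4921539H07Rik and 1700007F19Rik, leading genes of the 179 nuclei, were also among the leading genes of a CA1 pyramidal cluster. The label Lamp5-type is therefore uncertain for these 179 nuclei, of which 23.5% came from 1 library. They stayed in all Lamp5-type levels, tests and shares. Outside the named classes, a cluster of 570 nuclei led by Ndnf, Reln and Egfr had 156 ± 85.4 CPM, and 37.4% of its nuclei had an Npy UMI. It held 11.01% of all Npy UMIs, against 18.9% for Sst-type nuclei. That cluster met 9 of 9 inhibitory neuron markers, and was left unnamed because its 10 leading genes held more markers of another class. Of 700 inhibitory nuclei with 2 or more Npy UMIs, 45.9% had no subclass and 26.3% were Sst-type. An unnamed inhibitory sub-cluster of 279 nuclei led by Itgad had 122 CPM. In DG granule neurons Npy was at 1.29 ± 0.694 CPM, below the oligodendrocyte level in all 16 libraries. A UMI was seen in 0.701% of DG nuclei and 0.667% of the shallower oligodendrocytes.

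Vip was the most class-bound of the 9 genes in the share of UMIs, with 81.8% of all its UMIs in Vip-type nuclei, where the level was 806 ± 200.02 CPM. Sncg-type nuclei followed at 48.5 ± 31.0 CPM, further apart than the sum of the SDs, and both were above background in 16 of 16 libraries. The other interneuron subclasses and the excitatory classes had 0.324 to 1.48 CPM, against 2.92 ± 1.21 CPM in oligodendrocytes. Within the Vip-type, the level was 1125 CPM in 865 nuclei led by Vip, Sema5b and Prox1os, 391 CPM in 121 nuclei led by Itga8, Rxfp1 and Kit, and 32.5 CPM in 291 nuclei led by Gm39185 and Thsd7b. The last group had 74.7 CPM of Penk, against 100.2 CPM in the first group.

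Penk, the enkephalin precursor, was highest among the named classes in Vip-type nuclei at 84.1 ± 24.3 CPM, and 27.0% of them had a UMI (7.60% at 1000 UMIs), against 0.231% of oligodendrocytes (0.134% at 1000 UMIs). Low levels above background were also seen in excitatory neurons. DG granule neurons had 4.41 ± 0.954 CPM, above oligodendrocytes (1.53 ± 0.849 CPM) in 16 of 16 libraries, and CA1 pyramidal neurons had 3.94 ± 1.34 CPM, above them in 14. Because DG nuclei are many, they held 24.4% of all Penk UMIs, against 22.2% in Vip-type nuclei. An unnamed inhibitory sub-cluster of 81 nuclei led by 6530403H02Rik, Gm49906 and Otof had 105 CPM of Penk and 35.9 CPM of Tac1 with no Vip UMI.

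Crh, the stress hormone releasing factor, had 311 UMIs over all nuclei, and 49.2% of them were in Vip-type nuclei at 21.9 ± 16.2 CPM. Every library was above its oligodendrocyte level there. In Sncg-, Sst- and Pvalb-type nuclei the means were 0.696 to 1.03 CPM with SDs larger than the means. No Crh UMI was seen in 1196 Lamp5-type nuclei.

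Cck was present in both inhibitory and excitatory neurons. Sncg-type nuclei, the subclass that includes Cck basket cells, had 280.2 ± 166 CPM and Vip-type nuclei 121 ± 97.9 CPM. CA1 pyramidal neurons (51.8 ± 13.7 CPM), other excitatory neurons (48.5 ± 14.0), Lamp5-type (48.1 ± 26.8) and CA3 pyramidal neurons (43.2 ± 12.9) could not be ordered within their spread. The 179 Lamp5-type nuclei led by Stac and Clic6 had 6.07 CPM, and the 1017 others had 54.4 CPM. DG granule neurons, at 22.3 ± 6.05 CPM, were below CA3 by more than the sum of the SDs, and were above oligodendrocytes (30.7 ± 13.6 CPM) in only 2 of 16 libraries. A Cck UMI was seen in 12.3% of DG nuclei and 4.68% of the shallower oligodendrocytes, and in 2.16% and 2.87% at 1000 UMIs per nucleus. In the other glial classes the share was 4.15% to 4.48%. These measures disagree, so Cck in DG granule neurons is neither placed above background nor read as background. The highest sub-cluster levels were 520.05 CPM in the Vip-type nuclei led by Itga8 and 464 CPM in 352 Sncg-type nuclei led by Krt73, where Vip was at 134 CPM. Among the other Sncg-type nuclei, 196 led by Nr1h4 had 335 CPM of Cck. The largest Sncg-type sub-cluster, 470 nuclei led by Col5a2 and Pde3a, had only 70.1 CPM.

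A single library stood apart in Cck. Replicate 3 of Ch25h+/+ Tau- had 15.9 CPM of Cck over all nuclei, against 28.0 to 59.3 CPM in the 15 other libraries. In 5 excitatory and inhibitory classes (DG, CA1, CA3, other excitatory and inhibitory neurons) its level was 0.386 to 0.472 of the median of the others, and in glia 0.101 to 0.182. The same library had the highest share of mitochondrial UMIs (0.445%, against 0.0809% to 0.273% in the others), ranked highest of 16 for Npy, Tac1 and Cort and lowest for Crh over all nuclei. What part these play in its Cck level was not tested. Without that library, the tau effect on Cck in Ch25h+/+ went from 0.25 to 0.02 in CA1 (log2 scale) and from 0.82 to 0.60 in Sncg-type nuclei, and neither passed the test in either form.

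**Figure D2:**
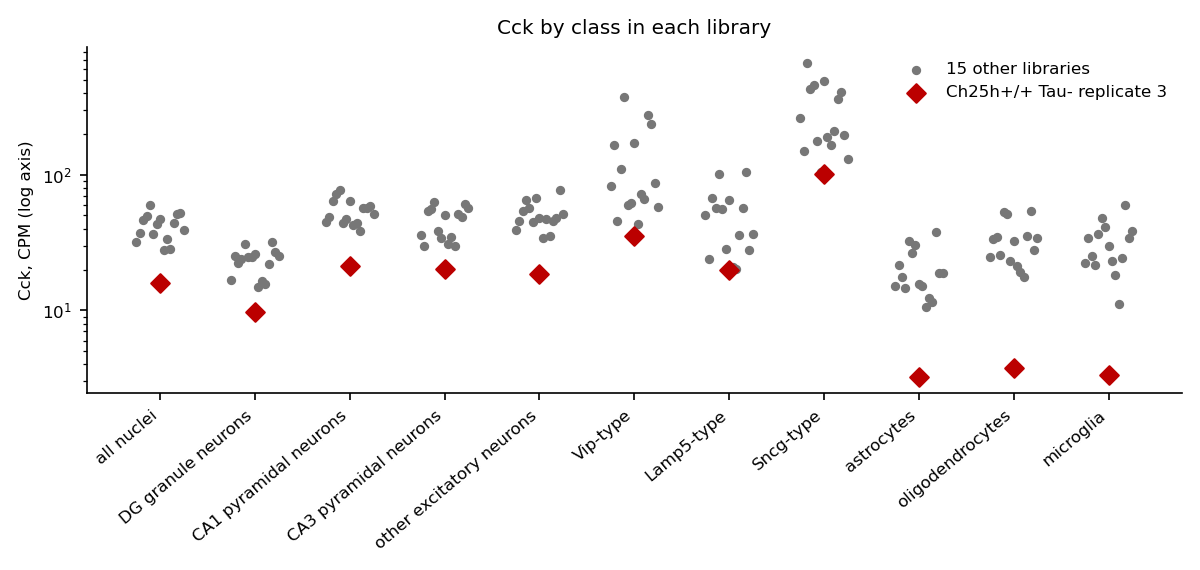
Cck level (CPM, log axis) by class in each library, with Ch25h+/+ Tau- replicate 3 as a red diamond and the 15 other libraries in grey. The diamond is the lowest point in the glial and excitatory classes.

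Tac1, the substance P precursor, was read mainly in Pvalb-type nuclei, at 48.8 ± 17.2 CPM, with 52.1% of all Tac1 UMIs. A UMI was seen in 26.2% of them (4.52% at 1000 UMIs), against 0.160% of oligodendrocytes (0.108% at 1000 UMIs). Sst-type nuclei (3.77 ± 2.98 CPM) and Lamp5-type nuclei (3.61 ± 4.24 CPM) were lower by more than the sum of the SDs. A Pvalb-type sub-cluster of 89 nuclei led by Pdlim3, Tll1 and Tgfbr2 had 92.1 CPM of Tac1 and 69.0 CPM of Npy.

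Pdyn had 71.3% of its UMIs in DG granule neurons, at 6.89 ± 1.31 CPM, and 3.98% of these nuclei had a UMI, against 0.0978% of oligodendrocytes. Sst-type nuclei had 9.56 ± 9.14 CPM, and 10.4 ± 9.15 CPM without the Ano2 and Cpa6 nuclei. Neither mean differed from the DG level by more than the sum of the SDs, and 3 libraries of the class had no Pdyn UMI. The other interneuron subclasses and excitatory classes were at 0.0766 to 0.358 CPM, and oligodendrocytes at 0.621 ± 0.444 CPM. Astrocytes were at 1.27 ± 0.932 CPM, and an astrocyte cluster of 1429 nuclei led by Myoc had 8.49 CPM on 30 UMIs.

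Most inhibitory nuclei carried few or none of these transcripts. Of the 10376 inhibitory nuclei, 6295 (60.7%) had 2 or more UMIs of none of the 9 genes, 3195 (30.8%) of 1 gene, 788 (7.59%) of 2 genes, 81 of 3 genes, 15 of 4 genes and 2 of 5 genes. Among 2159 nuclei with 2 or more Sst UMIs, 34.0% had an Npy UMI (24.8% to 39.5% across libraries), against 7.82% of nuclei without Sst. Among 748 nuclei with 2 or more Vip UMIs, 28.7% had a Penk UMI, 27.4% a Cck UMI and 7.89% a Crh UMI, against 2.57%, 15.7% and 0.983% of nuclei without Vip. The Vip nuclei were the shallower ones, with a median of 5157.5 UMIs against 7674 UMIs.

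Within inhibitory nuclei, some of the rarer peptides were often found beside a common one. Of 174 inhibitory nuclei with 2 or more Cort UMIs, 69.0% had Sst, 45.4% Npy and 33.9% Tac1, against 26.5%, 12.7% and 6.25% of nuclei without Cort. The Cort nuclei were the deeper ones, with a median of 9844 UMIs against 7356.5 UMIs. The part of depth in these shares was not tested. Of 34 inhibitory nuclei with 2 or more Pdyn UMIs, 33 had Sst, while in DG granule neurons, which hold most Pdyn UMIs, Sst was at background. Of 37 inhibitory nuclei with 2 or more Crh UMIs, 51.4% had Vip, against 8.37% of nuclei without Crh. Of 180 inhibitory nuclei with 2 or more Penk UMIs, 46.7% had Vip, against 6.81% of nuclei without Penk. Tac1 differed, as 26.5% of 325 inhibitory nuclei with 2 or more Tac1 UMIs had Sst, against 28.4% without Tac1. Some combinations were scarce. Of the Sst nuclei 0.695% had Vip, against 11.8% of nuclei without Sst, and of the Vip nuclei 2.54% had Npy, against 14.9%. These nuclei share libraries and clusters, and the shares are given as a description.

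The profile of each gene was set beside those of other genes over 48 neuron clusters (22 excitatory clusters and 26 inhibitory sub-clusters), as the Pearson correlation of log2(CPM + 1). These clusters come from the same 16 libraries, and the values describe likeness only. Sst was most like Crhbp (0.863) and Lypd6b (0.783), and Cort most like Crhbp (0.890) and Lhx6 (0.886). Gna14 was taken as the third gene for Sst (0.756), although Cort was closer (0.780). Crhbp encodes the binding protein of corticotropin-releasing hormone. Npy was most like 4930488N15Rik (0.886), Mageb18 and Maf, and Tac1 most like Ghitm (0.827). Vip was most like Prox1 (0.741), and Crh was most like Vip (0.648). Prox1 was on the list of markers of caudal ganglionic eminence origin, and was also a leading gene of DG granule neurons. Cck was most like Npy1r (0.698), an Npy receptor gene. The closest gene to Penk was 1700030K09Rik (0.744), and the closest to Pdyn was Dcaf1 (0.535), the lowest of the 9 closest values. Among the 9 genes themselves, Sst with Cort (0.780), Tac1 with Cort (0.763), Npy with Cort (0.709) and Sst with Npy (0.702) had the highest values, and Sst with Cck had the lowest (-0.52).

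Tau genotype and Ch25h genotype were then compared with edgeR's quasi-likelihood test on UMIs summed per library and class, adjusted by Benjamini-Hochberg over all genes of each class. Of the 90 gene-class pairs, 41 passed the filter on low counts, and all 9 genes passed it in inhibitory neurons. The contrasts were the tau effect within Ch25h+/+, within Ch25h-/- and over both, Ch25h loss within Tau+ and within Tau-, and the interaction. At adjusted p under 0.05, 0 of 246 tests on the peptide genes were called, by edgeR and by DESeq2. The lowest adjusted p was 0.331. Calls were rare for all genes too. Over the 10 classes together the share called was 0.0215% for tau in Ch25h+/+, 0.0504% for tau in Ch25h-/-, 0.0413% for tau over both, 0.00661% for Ch25h loss in Tau+, 0.00413% for Ch25h loss in Tau- and 0.0% for the interaction, or 0.0206% of 726648 tests in all.

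At an unadjusted p under 0.05, 12 of the 246 tests on the peptide genes passed, against 5.09% of all tests. By contrast the counts out of 41 were 0 for tau in Ch25h+/+ (all genes 4.37%), 5 for tau in Ch25h-/- (7.68%), 5 for tau over both (8.11%), 0 for Ch25h loss in Tau+ (3.19%), 0 for Ch25h loss in Tau- (3.23%) and 2 for the interaction (3.99%). Groups did not overlap in 3 of the 164 pairwise comparisons, against 2.84% of all genes. Those 3 were Penk and Sst in DG granule neurons and Cort in Sst-type nuclei, each for tau in Ch25h-/-. In simulated counts of the Sst-type the same test for tau in Ch25h+/+, at adjusted p under 0.05, recovered 53.0% of 2-fold and 96.0% of 4-fold changes among genes with a mean of at least 10 UMIs. In inhibitory neurons it recovered 67.0% and 94.0%. These simulations changed 100 genes at each size. For that contrast the data gave 1 call in Sst-type nuclei and 3 in inhibitory neurons. The adjustment is stricter where fewer genes change, so these shares do not carry over to the peptide genes.

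**Figure D3:**
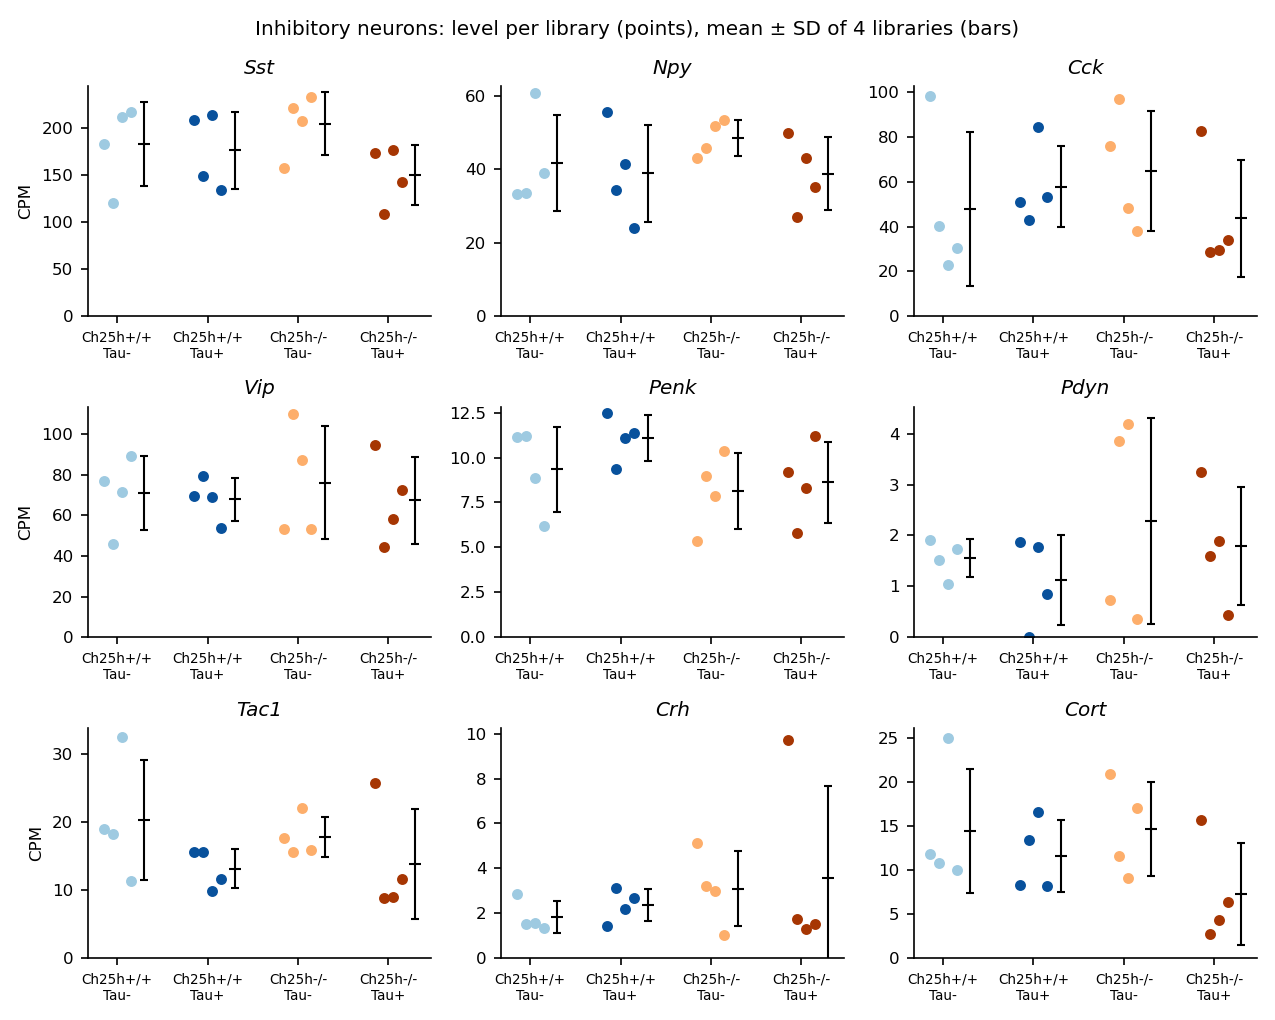
Level of each peptide gene in inhibitory neurons (CPM), 1 point per library, with the mean and SD of 4 libraries per group as bars. The 4 groups overlap for every gene, and Crh in Ch25h-/- Tau+ has 1 high library.

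Sst in Sst-type nuclei had the largest SD in CPM of the 9 genes in any class, though not relative to its mean. In CPM, for replicates 1 to 4, it was 440, 282, 929 and 958 in Ch25h+/+ Tau-, and 669.8, 492, 529 and 409.5 in Ch25h+/+ Tau+. It was 446, 921, 648 and 1006 in Ch25h-/- Tau-, and 635, 297, 360.4 and 425 in Ch25h-/- Tau+. All groups overlapped. The tau effect was -0.57 ± 0.26 (log2 ± SE) over both Ch25h genotypes (adjusted p = 0.761) and -0.80 ± 0.37 in Ch25h-/- (adjusted p = 0.621). Both were under 0.05 before adjustment only. These fits held the 489 nuclei led by Ano2 and Cpa6, whose number per library ran from 0 to 74. There were 71, 43, 2 and 2 of them in Ch25h+/+ Tau-, 24, 5, 56 and 73 in Ch25h+/+ Tau+, 27, 0, 0 and 0 in Ch25h-/- Tau-, and 3, 74, 66 and 43 in Ch25h-/- Tau+. The 7 libraries with 43 or more of them had 282 to 529 CPM of Sst, and the 9 others 446 to 1006 CPM. Without them, an alternative chosen after seeing the data, the tau effect on Sst was -0.10 ± 0.19 over both genotypes (adjusted p = 0.9997) and -0.18 ± 0.27 in Ch25h-/-. Over all inhibitory neurons, which include the unnamed Sst-rich sub-clusters, the tau effect on Sst in Ch25h-/- was -0.45 ± 0.21 (adjusted p = 0.627), and -0.36 ± 0.20 (adjusted p = 0.799) without the Ano2 and Cpa6 nuclei. With each library left out in turn it ran from -0.56 to -0.33, and it did not pass in any of these fits.

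The group means then lay closer together. Without those nuclei they were 829.6 ± 272 CPM in Ch25h+/+ Tau-, 834 ± 236 in Ch25h+/+ Tau+, 807 ± 184 in Ch25h-/- Tau- and 697 ± 78.9 in Ch25h-/- Tau+ (SD, n = 4 each). Within replicates 3 and 4 of each group, tau over both genotypes had given called differences for Sst (-1.03, adjusted p = 5.96e-05) and Npy (-1.34, adjusted p = 4.17e-05). Without the Ano2 and Cpa6 nuclei these became -0.05 (adjusted p = 0.990) and -0.32 (adjusted p = 0.942). In replicates 1 and 2 alone the Sst value was 0.047 with them included.

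**Figure D4:**
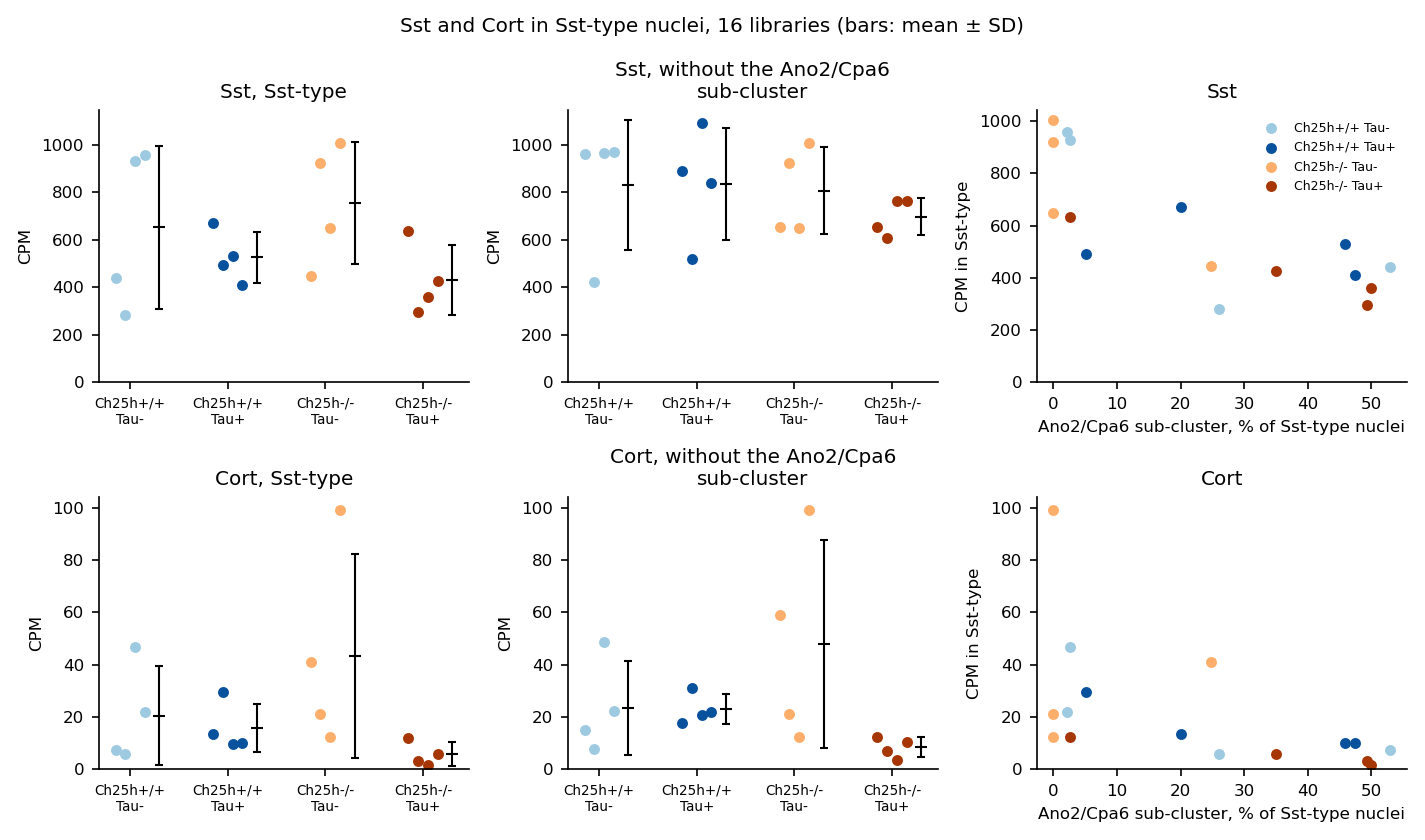
Sst (top) and Cort (bottom) in Sst-type nuclei per library, with the Ano2 and Cpa6 sub-cluster included and left out. The right panels plot the level, with the sub-cluster included, against its percentage of Sst-type nuclei. The 7 libraries with 43 or more of these nuclei (counts in the text) have 282 to 529 CPM of Sst when they are included. The 9 others have 446 to 1006 CPM, and group means of Sst are 697 to 834 CPM when they are left out.

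Npy in Sst-type nuclei had group means of 78.6 ± 42.04 CPM in Ch25h+/+ Tau-, 77.6 ± 60.3 in Ch25h+/+ Tau+, 95.0 ± 28.7 in Ch25h-/- Tau- and 56.6 ± 35.9 in Ch25h-/- Tau+ (SD, n = 4 each). The tau effect over both genotypes was -0.38 ± 0.39 (adjusted p = 0.848), and -0.03 ± 0.25 without the Ano2 and Cpa6 nuclei. Npy in Lamp5-type nuclei, with the 179 nuclei led by Stac and Clic6 included, had group means between 34.9 and 41.6 CPM.

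Cort in Sst-type nuclei had the largest fold change. It was 40.9, 21.3, 12.3 and 99.2 CPM in Ch25h-/- Tau-, and 12.1, 3.25, 1.61 and 5.67 CPM in Ch25h-/- Tau+. These groups did not overlap, although the lowest of one and the highest of the other were close, and they rest on 10 to 45 and on 2 to 11 UMIs per library. In Ch25h+/+ it was 7.31, 5.84, 46.8 and 21.9 CPM in Tau- and 13.4, 29.4, 9.80 and 10.2 CPM in Tau+, which overlapped. The tau effect in Ch25h-/- was -2.92 ± 0.81 (adjusted p = 0.580) and the interaction -2.74 ± 1.13 (adjusted p = 0.999), so neither passed. The tau effect in Ch25h-/- was -2.25 without Tau- replicate 4 and -3.54 without Tau+ replicate 1, the lowest and highest sizes when single libraries were left out. Without the Ano2 and Cpa6 nuclei the tau effect in Ch25h-/- was -2.31 ± 0.70 (adjusted p = 0.974) and the interaction -2.40 ± 0.99 (adjusted p = 0.9998). In Pvalb-type nuclei, the other class with Cort, that effect was -0.36 ± 0.55 (adjusted p = 0.997).

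Vip in Vip-type nuclei gave no group that stood apart. It was 1211, 455, 938 and 954 CPM in Ch25h+/+ Tau-, and 622, 963, 768.5 and 1048 CPM in Ch25h+/+ Tau+. The values were 703, 847, 746 and 568 CPM in Ch25h-/- Tau-, and 848, 566, 723 and 932 CPM in Ch25h-/- Tau+. The groups overlapped throughout, and the tau effect over both genotypes was 0.01 ± 0.18 (adjusted p = 0.999). Penk in the same nuclei had means of 78.2 ± 38.1 CPM in Ch25h+/+ Tau-, 97.7 ± 16.1 in Ch25h+/+ Tau+, 72.8 ± 20.7 in Ch25h-/- Tau- and 87.9 ± 18.3 in Ch25h-/- Tau+ (SD, n = 4 each). Its tau effect was 0.31 ± 0.19 (adjusted p = 0.999). Crh there rested on 2 to 38 UMIs per library, and its tau effect was 0.60 ± 0.51 (adjusted p = 0.999).

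Penk in DG granule neurons was 4.40, 5.55, 5.62 and 4.87 CPM in Ch25h-/- Tau-, and 2.44, 4.35, 3.98 and 3.65 CPM in Ch25h-/- Tau+. The groups did not overlap, with 4.40 against 4.35 CPM at the boundary. In Ch25h+/+ the values were 4.55, 4.88, 5.49 and 4.25 CPM without tau and 4.89, 2.36, 4.79 and 4.41 CPM with it, which overlapped. The tau effect was -0.49 ± 0.21 in Ch25h-/- (adjusted p = 0.674) and -0.36 ± 0.15 over both (adjusted p = 0.478). In CA1 pyramidal neurons the tau estimates for Penk had opposite signs in the 2 Ch25h genotypes, -0.49 ± 0.32 in Ch25h+/+ and 0.46 ± 0.32 in Ch25h-/-, with an interaction of 0.95 ± 0.45 (adjusted p = 0.927). The interaction was 0.39 in replicates 1 and 2 alone and 1.48 in replicates 3 and 4 alone, where tau in Ch25h-/- was called at 1.35 ± 0.28 (adjusted p = 0.0368).

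Pdyn in DG granule neurons, its main site, was 8.73, 6.04, 6.78 and 8.98 CPM in Ch25h+/+ Tau-, and 4.17, 6.74, 6.91 and 5.67 CPM in Ch25h+/+ Tau+. It was 6.04, 8.44, 8.19 and 6.90 CPM in Ch25h-/- Tau-, and 5.82, 6.15, 8.25 and 6.44 CPM in Ch25h-/- Tau+. The groups overlapped, and the tau effect over both was -0.27 ± 0.13 (adjusted p = 0.612). Sst in the same nuclei had the lowest adjusted p of all the tests, for tau over both genotypes (-0.51 ± 0.16, adjusted p = 0.331). Its level there, 1.57 to 4.41 CPM, was at background. Sst in oligodendrocytes, read in the same free RNA, ran from 21.4 to 26.2 CPM without tau and from 9.55 to 14.4 CPM with it in Ch25h+/+. In Ch25h-/- it ran from 11.1 to 23.7 CPM without tau and from 7.38 to 16.9 CPM with it. The part of free RNA in the DG value was not tested.

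Cck in Sncg-type nuclei was 456, 176, 101 and 105 CPM in Ch25h+/+ Tau-, and 260.4, 149, 665 and 428 CPM in Ch25h+/+ Tau+. It was 362, 404, 196 and 129.5 CPM in Ch25h-/- Tau-, and 488, 189, 165 and 209 CPM in Ch25h-/- Tau+. All groups overlapped and the tau effect over both was 0.39 ± 0.42 (adjusted p = 0.998). Within replicates 3 and 4 alone, tau in Ch25h+/+ gave 2.34 ± 0.23 (adjusted p = 1.71e-06), a contrast of 2 libraries with 2 in which 1 control is the library that stood apart in Cck. In replicates 1 and 2 the order was the other way, with 456 and 176 CPM without tau against 260.4 and 149 CPM with it. Tac1 in Pvalb-type nuclei had group means of 54.0 ± 25.015, 43.6 ± 12.1, 56.3 ± 11.2 and 41.3 ± 19.0 CPM (SD, n = 4), without and with tau in Ch25h+/+, then without and with tau in Ch25h-/-. Its tau effect over both was -0.33 ± 0.25 (adjusted p = 0.893).

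The share of each subclass among inhibitory nuclei was compared with exact permutation tests over libraries. Of 30 tests on 5 subclasses, 0 passed at adjusted p under 0.05, and 3 had an unadjusted p under 0.05. In the 20 tests of 4 libraries against 4 the smallest possible p is 0.0286, which could hardly pass after adjustment, so the absence of calls says little. Sst-type nuclei were 16.5% ± 3.52 in Ch25h+/+ Tau-, 20.04% ± 3.61 in Ch25h+/+ Tau+, 15.1% ± 4.47 in Ch25h-/- Tau- and 21.01% ± 2.39 in Ch25h-/- Tau+ (SD, n = 4 each). The tau difference over both was 4.71 percentage points (exact permutation p = 0.0155, adjusted p = 0.429). Without the Ano2 and Cpa6 nuclei it was 0.505 points (exact permutation p = 0.760). Sncg-type nuclei were 11.4% ± 1.63 in Ch25h-/- Tau- and 8.12% ± 0.908 in Ch25h-/- Tau+ (SD, n = 4 each), a difference of -3.32 points (exact permutation p = 0.0286, adjusted p = 0.429).

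Npy transcripts were also found in a mixed, unnamed cluster of 404 nuclei. By markers it was closest to DG granule neurons, with 7 of 10 at least 2-fold above other nuclei, but its leading genes included the pituitary hormones Pomc, Prl and Gh. It held 14 sub-clusters, and the sub-clusters led by Prl and Gh (19 nuclei) and by Pomc (13 nuclei) had no Npy UMI. An Npy UMI was seen in 10.9% of its nuclei. Of its 144 Npy UMIs, 141 were in Tau+ libraries. With tau they numbered 3, 9, 4 and 9 in Ch25h+/+ and 52, 14, 0 and 50 in Ch25h-/-. Without tau they numbered 0, 2, 0 and 0 in Ch25h+/+ and 0, 0, 1 and 0 in Ch25h-/-. Of these UMIs, 137 were in 4 sub-clusters of 102 nuclei with over 40 CPM of Npy, 85 of them from Tau+ libraries. Those 4 met 8, 6, 1 and 2 of the 10 DG markers. In the same order they held 13, 33, 52 and 39 Npy UMIs, in 7, 12, 15 and 4 nuclei. The 4 sub-clusters were led by genes such as Atf3, a stress-induced transcription factor, Hmcn2, Gpnmb, Ecel1 and Igf2bp2. Other sub-clusters with many DG markers held little Npy. One of 77 nuclei led by Ifit1, Iigp1 and Usp18, 76 of them from Tau+ libraries, met 10 of 10 and had 1 Npy UMI. Another of 27 nuclei led by Phf11d and Ifit1, all from Tau+ libraries, met 7 of 10 and had 2 Npy UMIs. In DG granule neurons, Npy UMIs per library were 3 to 9 in Ch25h+/+ Tau+ and 4 to 19 in Ch25h-/- Tau+, against 1 to 16 and 7 to 19 in the corresponding Tau- groups. With the cluster added to DG granule neurons, an alternative chosen after seeing the data, the tau effect on Npy in Ch25h-/- was 2.08 ± 0.69 (adjusted p = 0.490), against 0.36 ± 0.51 (adjusted p = 0.986) without it. The cluster was singled out after its values were seen, so the difference has no test. More of its nuclei came from Tau+ libraries to begin with, 90 and 191 in Ch25h+/+ and Ch25h-/-, against 61 and 62 from Tau- libraries.

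**Figure D5:**
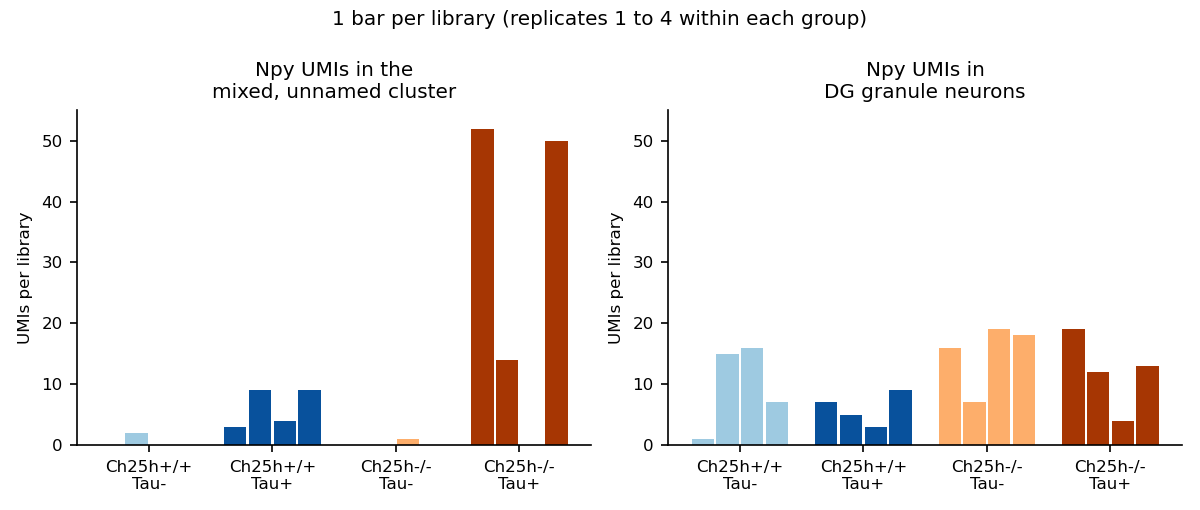
Npy UMIs per library in the mixed, unnamed cluster (left), whose markers are closest to DG granule neurons, and in the clusters named DG granule neurons (right), 1 bar per library for replicates 1 to 4 of each group. In the cluster 141 of 144 UMIs are in Tau+ libraries, while the DG bars overlap between groups. Its sub-clusters that met 1 and 2 of 10 DG markers hold 52 and 39 of these UMIs.

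The partners of these peptides were read from 3 lists of 21 genes each. Among the receptors, Oprm1, which binds enkephalins, was highest in Lamp5-type nuclei (204 ± 54.9 CPM), and Oprd1, also an enkephalin receptor, was highest in Pvalb-type nuclei (125 ± 18.2 CPM). Tacr1, the substance P receptor, was highest in Lamp5-type nuclei (67.1 ± 20.1 CPM), and Npy1r in Vip-type nuclei (60.4 ± 15.7 CPM). Crhr1, the main Crh receptor, was highest in other excitatory neurons (31.6 ± 6.86 CPM), and Sstr4 in CA1 pyramidal neurons (6.13 ± 0.751 CPM). Among the processing and dense-core granule genes, the convertase Pcsk2 was highest in other excitatory neurons (896 ± 80.6 CPM) and the amidating enzyme Pam in Lamp5-type nuclei (911 ± 103 CPM). Next came CA3 for Pcsk2 (824 ± 65.2), Sst-type for Pam (698 ± 207), other excitatory neurons for Oprm1 (142 ± 35.1) and Sncg-type for Npy1r (42.1 ± 13.4). For these genes the top classes did not differ by more than the sum of the SDs. For Oprd1, Tacr1, Crhr1 and Sstr4 they did. Among the other precursors, Tac2 was highest in Vip-type nuclei (75.9 ± 26.4 CPM), Pnoc in Lamp5-type nuclei (65.4 ± 15.01 CPM) and Bdnf in DG granule neurons (81.6 ± 13.9 CPM). In the genotype contrasts, 0 gene-class pairs were called in any list, of 107 for receptors, 186 for processing genes and 44 for other precursors per contrast. At an unadjusted p under 0.05, the receptors gave 9 of 107 for tau in Ch25h+/+ (all genes 4.37%), 15 for tau in Ch25h-/- (7.68%), 18 for tau over both (8.11%), 3 for Ch25h loss in Tau+ (3.19%), 14 for Ch25h loss in Tau- (3.23%) and 8 for the interaction (3.99%). In the same order of contrasts the processing genes gave 11, 23, 27, 6, 8 and 7 of 186, and the other precursors gave 4, 6, 7, 1, 3 and 2 of 44. These pairs repeat genes across classes of the same libraries, and none of them passed after adjustment.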

How the data were processed

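Nuclear RNA of the hippocampus was read in 16 libraries with the 10x 3′ v3.1 kit, per the labels' protocols. The authors deposited whole-number UMI counts per gene and barcode, unfiltered. Per the file headers these are Cell Ranger 4 matrices, while the submitters' processing notes list Cell Ranger 3.1.0 and mm10. Aligner settings are not given in the sources used here.

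Barcodes with at least 500 UMIs, 300 genes and at most 5% mitochondrial UMIs were kept (147873), and 0 failed a comparison with empty barcodes. Doublets were scored against simulated doublets and 11045 were removed. Nuclei were clustered without the 9 peptide genes (3000 variable genes, 50 components, Leiden resolution 1; igraph 0.11.9). A cluster was named where at least 3 markers were 2-fold above the other nuclei, unless its 10 leading genes held more markers of another class, or it was shallow with no marker of its own among them, or over 50% of it were doublets. Of 79 clusters 38 were left unnamed, 28 of them for doublets. Lists of cells outside the hippocampus and the 2-fold rule were added with the data in view.

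UMIs were summed per library and class. edgeR 4.0.16 (R 4.3.3) fitted 1 mean per group over all 16 libraries with TMM and filterByExpr. DESeq2 1.42.0 was an alternative. For subclass shares, exact permutation tests (two-sided) were run over libraries. The fit was tested on simulated counts. Depth was 51270831 to 84870650 UMIs per library.

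All 9 members are named. From the related lists up to 3 called genes per direction were to be named, and receptors or enzymes named for their levels were picked after seeing them. For each member 3 genes with the most similar profile were taken, except that Cort was closer to Sst than the third gene taken for it. The members, lists and contrasts were chosen with earlier results of these data known. Alternatives were other normalizations, filters, library subsets and leaving out each library, and 5 class definitions added after seeing the data.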

Additional observations from a re-analysis of the deposited data

Results flagged for a closer look

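In 180 groups of 4 libraries checked, 15 held a library set apart from the other 3 by more than Dixon's 95% limit. Chance flags about 1 in 20 groups. Replicate 1 of Ch25h-/- Tau+ was high for Crh over all nuclei (0.987 CPM) and in inhibitory neurons (9.73 CPM), for Tac1 in inhibitory neurons (25.8 CPM), and for Cck in DG granule neurons (25.9 CPM), inhibitory neurons (82.7 CPM) and Sncg-type nuclei (488 CPM). Cort was high in replicate 3 of Ch25h+/+ Tau- in inhibitory neurons (24.98 CPM) and Pvalb-type nuclei (43.8 CPM), the library with low Cck, and in Pvalb-type nuclei of Ch25h-/- Tau- replicate 1 (33.0 CPM).

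Replicate 1 of Ch25h+/+ Tau- was high for Crh in inhibitory neurons (2.88 CPM) and for Cck in Vip-type nuclei (373.0 CPM). Npy in Pvalb-type nuclei was high in Ch25h-/- Tau+ replicate 4 (23.9 CPM). Sst at background level was low in DG granule neurons of Ch25h+/+ Tau+ replicate 3 (1.90 CPM) and of Ch25h-/- Tau- replicate 1 (3.07 CPM), and in other excitatory neurons of Ch25h+/+ Tau+ replicate 1 (1.497 CPM).

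Outside the named neuron classes, the 141 Npy UMIs of Tau+ libraries in the mixed, unnamed cluster stood against 3 in the Tau- libraries, which hold 123 of its nuclei. Its sub-clusters that met 1 and 2 of 10 DG markers held 52 and 39 of these UMIs.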

How the results depend on the processing

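No paired analysis was possible because the replicate numbers follow accession order and the labels pair no libraries. For each of the 6 genotype contrasts, 0 peptide gene-class pairs were called, and 27 or 28 of 29 alternatives also gave 0, among them DESeq2, no TMM, nuclei of at least 1000 UMIs, kept doublets, library set as a term and the 5 class definitions added after seeing the data. Leaving out each library gave 0 to 0. Without the filter on low counts, 1 pair was called for tau in Ch25h+/+, 1 for tau over both and 1 for Ch25h loss in Tau+, all of them Sst in Sncg- or Lamp5-type nuclei at a mean of 3.31 to 3.75 UMIs. Within replicates 3 and 4 alone, 5 pairs were called for tau in Ch25h+/+, 3 for tau in Ch25h-/-, 3 for tau over both, 1 for Ch25h loss in Tau+ and 1 for the interaction. These were Cck in Sncg-, Lamp5-type and all inhibitory nuclei, Sst and Npy in Sst-type nuclei and Penk in CA1 neurons. Within replicates 1 and 2 alone, 1 pair was called for Ch25h loss in Tau-, Vip in Sncg-type nuclei (2.71, adjusted p = 0.00225). Each such subset has 2 libraries per group. The tau effect on Sst in Sst-type nuclei over both genotypes reversed to 0.047 in replicates 1 and 2. The 33 gene-class pairs above background in share of nuclei became 15 at 1000 UMIs per nucleus. The 30 share tests gave 0 calls under all 21 alternatives, leaving out each library included (0 to 0), but 20 of them could hardly pass at this size, so this says nothing about stability. The cause of these differences was not tested. Crh, Pdyn and Cort had means of 8.38 to 15.1 UMIs per library in their Vip- or Sst-type nuclei, which limits their precision.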
